A study of Mus musculus with 6 samples.

Results

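The genes described here encode the proteins of the mitochondrial ribosome and were chosen by name, as every gene of the table whose symbol begins with Mrpl or Mrps followed by a digit. The rule found 75 of the 18263 genes, and used no measured value. RNA-seq was performed on hippocampus of 6-month-old mice, with 3 libraries from 5xFAD mice and 3 from wild-type (WT) mice, with 1 mouse per library as the series describes it. 5xFAD mice carry human transgenes, APP among them, that hold mutations found in families with Alzheimer's disease. The Thy1 promoter of these transgenes is active mainly in neurons, and the line is on a C57BL/6J background. The WT mice lack the transgenes. Age was 6 months in all mice, and the WT mice are described as littermates, while the labels do not give the sex of these mice. Total RNA was depleted of rRNA, converted to libraries with a low-input kit and sequenced as paired ends. Values are CPM, counts scaled to a common library size, and the libraries are named WT 1 to 3 and 5xFAD 1 to 3 after their replicate numbers.

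Mitochondria translate their own small genome with a dedicated ribosome, whose RNA parts come from mitochondrial DNA and whose proteins are all encoded in the nucleus, made in the cytosol and imported. The small subunit decodes the message and the large subunit joins the amino acids, and the products are membrane subunits of the respiratory chain and of ATP synthase. Some of the proteins have counterparts in bacterial ribosomes, while others occur only in mitochondria, where they replace or extend RNA that the mammalian mitochondrial ribosome has lost. Neurons depend on oxidative phosphorylation, which this ribosome helps to build.

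By role, 47 of the 75 genes encode proteins of the large subunit and 26 proteins of the small subunit. Mrps18a and Mrps30 were counted with the large subunit, where structures place their proteins in spite of the names. The remaining members were Mrps36, whose protein is now known as a part of the 2-oxoglutarate dehydrogenase complex, and Mrps36-ps1, a copy named as a pseudogene of it. After the filter on low counts 73 members were tested, and Mrpl28 and Mrps36-ps1 were not. Mrpl52 and Mrpl53 were not analysed here, and Mrpl57 and Mrpl58 stood in the table under their older symbols Mrp63 and Ict1, outside the rule.

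The 74 members with a position in GENCODE M21 (GRCm38, the assembly of mm10) lay on 17 chromosomes, and Mrpl33 was the member without one. Of these 74, 27 (36.5%) faced another protein-coding gene head to head, with start sites between 600 bases of overlap and 1000 bases apart on opposite strands, against 11.6% of 17616 protein-coding genes of the table. Mrpl46 and Mrps11, which encode proteins of opposite subunits, faced each other with overlapping 5′ ends. Among the other pairs, Mrps12 faced Sars2, the mitochondrial seryl-tRNA synthetase, Mrps27 faced Ptcd2, a pentatricopeptide repeat protein of mitochondrial RNA processing, and Mrpl49 faced Fau, which encodes a protein of the cytosolic ribosome. Exons of 26 members overlapped a gene on the opposite strand, and those of 6 a gene on the same strand. Whether the counting used strand is not stated, and reads from such overlaps cannot be told apart.

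Promoter windows from RefSeq (GRCm38.p6), running from 250 bases before to 50 bases after a start site, were matched by symbol for 65 members, with 71 windows. They were searched on both strands for GCGCATGC, letters within the site of the nuclear respiratory factor NRF1, for CCGGAAG, a site of ETS factors such as GABP, and for AAGATGGC, a site of YY1. These factors are known for their part in the transcription of nuclear genes for mitochondrial proteins. The NRF1 letters stood in 8 member windows (11.3%) against 2.71% of all 32851 windows, the ETS letters in 22 (31%) against 8.86%, and the YY1 letters in 12 (16.9%) against 2.75%. At least 1 of the 3 was found in 34 member windows (47.9%) and in 13.3% of all windows. The median first base of a match lay at -49 from the start for NRF1, at -22 for ETS and at 15 for YY1, and no match of one motif overlapped a match of another in a member window, whereas NRF1 letters on opposite strands can overlap each other. A match is a string of letters in this window and no measured binding. The 4 members described by role below that held at least 2 matches are shown, with the matches in capitals, because they hold the letters of all 3 motifs and include a pair of the Mrps18 paralogues. The windows are chr7:28741772-28742071 on the minus strand, chr17:46110754-46111053 on the plus strand, chr17:35916391-35916690 on the minus strand and chr13:99344536-99344835 on the plus strand, each written 5′ to 3′ along the gene.
Mrps12: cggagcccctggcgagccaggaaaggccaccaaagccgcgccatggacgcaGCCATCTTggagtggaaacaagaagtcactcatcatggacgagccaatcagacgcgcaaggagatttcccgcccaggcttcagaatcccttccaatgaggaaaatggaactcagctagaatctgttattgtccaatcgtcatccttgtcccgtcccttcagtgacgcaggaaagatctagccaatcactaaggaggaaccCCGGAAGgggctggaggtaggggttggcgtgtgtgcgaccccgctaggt
Mrps18a: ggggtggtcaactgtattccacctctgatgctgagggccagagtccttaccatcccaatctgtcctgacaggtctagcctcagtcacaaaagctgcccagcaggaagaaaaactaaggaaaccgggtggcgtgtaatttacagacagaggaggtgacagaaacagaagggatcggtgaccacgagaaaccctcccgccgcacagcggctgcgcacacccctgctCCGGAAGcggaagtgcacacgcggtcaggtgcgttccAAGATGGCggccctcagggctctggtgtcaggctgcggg
Mrps18b: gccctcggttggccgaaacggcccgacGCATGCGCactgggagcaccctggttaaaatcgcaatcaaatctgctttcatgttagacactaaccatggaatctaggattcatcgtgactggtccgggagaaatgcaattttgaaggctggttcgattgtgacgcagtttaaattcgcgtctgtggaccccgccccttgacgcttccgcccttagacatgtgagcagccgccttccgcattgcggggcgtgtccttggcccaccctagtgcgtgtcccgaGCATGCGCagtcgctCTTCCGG
Mrps27: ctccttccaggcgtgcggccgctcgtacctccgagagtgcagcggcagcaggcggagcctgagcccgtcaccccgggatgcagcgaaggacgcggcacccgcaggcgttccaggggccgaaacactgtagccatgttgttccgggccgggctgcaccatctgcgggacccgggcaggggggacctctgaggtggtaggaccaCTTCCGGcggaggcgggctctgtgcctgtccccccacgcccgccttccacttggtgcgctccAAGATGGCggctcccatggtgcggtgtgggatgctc
In the Mrps18a and Mrps27 windows an ETS site before the start was followed by a YY1 site just after it. Mrps12 held a YY1 site far upstream and an ETS site at the start, and Mrps18b held NRF1 letters at both ends and an ETS site at its last bases.

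The libraries held 8.45 to 12.6 M counts. WT 3 stood apart from the other 5: its deviation from their mean followed transcript GC content over 12877 genes (Spearman correlation -0.62, against -0.063 to 0.064 for each of the others). Fitted differences are therefore given with all 6 libraries and without WT 3. The members together took 5417 to 10160 counts per library, so that single members were measured with between 0 and 659 counts per library. Between genotypes, 85 genes were called higher and 0 lower among 12952 tested with 6 libraries, and without WT 3 320 were called higher and 67 lower among 13376.

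Members differed widely in level. Per kilobase of exon, the 72 tested members with a length ranged from 0.353 CPM per kilobase for Mrpl15 to 15.6 for Mrps21, a 44.1-fold range, with a median of 3.11. The median over all genes tested was 4.19 CPM per kilobase, and 26 of the 72 members lay above it. Large and small subunit members had medians of 3.15 and 2.76 CPM per kilobase (n = 45 and 26 genes). These levels depended on the length used: by the longest transcript the median was 5.03, and both orders of the members had a Spearman correlation of 0.81 over 74 genes.

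The most abundant small subunit members per kilobase of exon were Mrps21 (15.6 CPM per kilobase), Mrps15 (15.1) and Mrps12 (7.69). By the longest transcript the leaders were Mrps15 (27.3), Mrps21 (23.6) and Mrps34 (16.9), with Mrps12 at 9.06. Mrps21, a small RNA-binding protein of bacterial type, had 9.69, 12.3 and 13.5 CPM in WT 1, 2 and 3 and 13.8, 11.4 and 8.36 CPM in 5xFAD 1, 2 and 3. For Mrps15, which binds the small subunit rRNA, the values were 27.2, 27.1 and 21.9 CPM in WT and 24.3, 23.8 and 29.1 CPM in 5xFAD. The groups overlapped for both, with log2 differences of -0.09 (SE 0.28) for Mrps21 and 0.02 (SE 0.21) for Mrps15. Without WT 3 both had the opposite sign, at 0.01 (SE 0.25) for Mrps21 and -0.07 (SE 0.16) for Mrps15. Of the large subunit, Mrpl10 (12.5 CPM per kilobase of exon), Mrpl38 (12.4) and Mrpl41 (12) led. By the longest transcript Mrpl38 (22.4), Mrpl37 (18.8) and Mrpl41 (13.7) led, with Mrpl10 at 12.5. Mrpl10 belongs to the base of the stalk that recruits translation factors, and measured 21.1, 22.3 and 21.9 CPM in WT and 17.7, 22.9 and 22.5 CPM in 5xFAD. Mrpl38, a protein found only in mitochondria, measured 30, 34.8 and 30 CPM in WT and 34.2, 30.9 and 29.8 CPM in 5xFAD, with equal group means of 31.6 ± 2.77 and 31.6 ± 2.29 CPM (SD, n = 3). Both overlapped between genotypes, with log2 differences of -0.05 (SE 0.21) for Mrpl10 and 0 (SE 0.19) for Mrpl38, and of -0.04 (SE 0.18) and -0.03 (SE 0.15) without WT 3. Mrpl41, also specific to mitochondria, was at 11.8, 9.74 and 14.9 CPM in WT and at 10.2, 7.5 and 9.87 CPM in 5xFAD. Its lowest WT library lay under the highest 5xFAD library, and the log2 difference was -0.4 (SE 0.27), or -0.22 (SE 0.24) without WT 3.

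**Figure D1:**
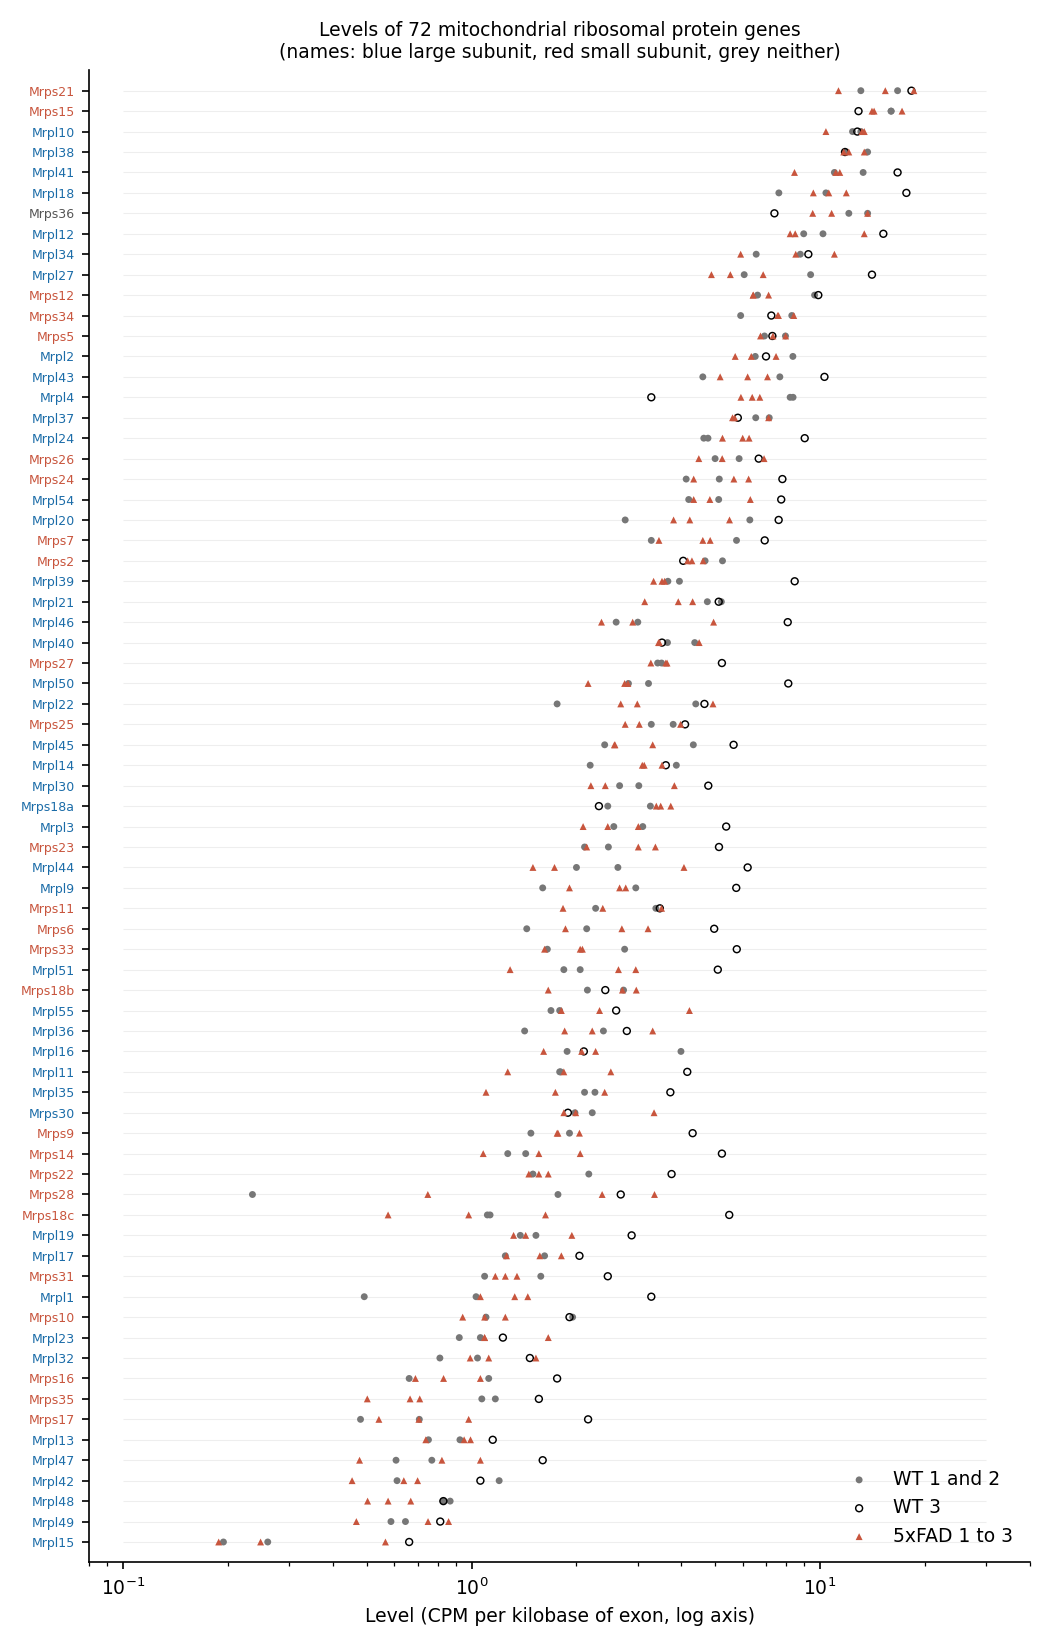
Level of each of the 72 tested members with a length, in CPM per kilobase of exon on a log axis, ordered by the mean over 6 libraries; circles are WT (open for WT 3), triangles 5xFAD. Levels run from 0.353 (Mrpl15) to 15.6 (Mrps21) and the open circle of WT 3 often lies to the right of the other 5 libraries.

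Mrps5, chosen after its values were seen as the member with the most counts (379 to 659 per library), shows the precision reached at the highest counts. Its SE includes the spread between libraries besides counting error. It encodes a protein of bacterial type near the mRNA entry of the small subunit. Its CPM were 52.4, 45.6 and 48 in WT and 48.2, 44.4 and 52.5 in 5xFAD, with a log2 difference of -0.01 (SE 0.17), and -0.01 (SE 0.13) without WT 3. At the other end, Mrpl28, a large subunit protein of bacterial type, had 0, 0 and 1 count in WT and 0, 1 and 0 counts in 5xFAD. These lie under the floor of 3 counts in every library, so that no fold is given. Mrps36-ps1 had 5, 11 and 5 counts in WT and 0, 13 and 2 in 5xFAD, and its reads may be shared with Mrps36. Of the 2 fits reported side by side, Mrps36-ps1 passed the filter only in that without WT 3, with a log2 difference of -0.39 (SE 1.11).

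The comparison of 5xFAD with WT asks whether the transcripts of the mitochondrial ribosome differ in the hippocampus of mice with amyloid pathology. No member passed the test in either direction (edgeR quasi-likelihood test with Benjamini-Hochberg adjustment over all genes tested, threshold 0.05). With 6 libraries 0 of 73 members were called higher, against 0.656% of all genes, and 0 were called lower, against 0% of all genes. Without WT 3, 0 of 74 were called higher, against 2.39% of all genes, and 0 lower, against 0.501%. At an unadjusted p under 0.05, 0 members were higher and 1 was lower with 6 libraries, against 4.52% and 1.78% of all genes. Without WT 3 the same counts were 0 and 2, against 8.07% and 6.06%. DESeq2, the edgeR likelihood ratio test and limma-voom with and without library weights also called 0 members, and each had 0 higher and 1 or 2 lower members at an unadjusted p under 0.05. The smallest adjusted p of any member in any fit was 0.0768, for Mrps35 in DESeq2. In bulk tissue, fewer cells of a type and less RNA per cell cannot be told apart.

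The direction of the members depended on WT 3. With 6 libraries 57 of 73 members (78.1%) had a lower estimate in 5xFAD, against 52.3% of all genes, and the median log2 difference was -0.192, against -0.022 over all genes. Without WT 3, 34 of 74 (45.9%) had a lower estimate, against 48.4% of all genes, and the median was 0.014, against 0.009. Of the 73 members in both fits, 27 had a lower estimate with WT 3 and a higher one without it and 3 the opposite, while 30 were lower in both and 13 higher in both. Without WT 3, 65 of 74 members (87.8%) differed by less than 0.5 on the log2 scale, against 83.2% of all genes, and the median SE was 0.29.

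Summed over all 75 members, the level was 717, 684 and 968 CPM in WT 1, 2 and 3 and 671, 686 and 699 CPM in 5xFAD 1, 2 and 3. The means were 790 ± 155 CPM in WT and 685 ± 13.8 CPM in 5xFAD (SD, n = 3), and 700 ± 23.1 CPM over WT 1 and 2 (n = 2). WT 3 alone lay above the other 5 libraries, which spanned 671 to 717 CPM. The large subunit sum was 410, 411 and 586 CPM in WT and 407, 410 and 403 CPM in 5xFAD. The small subunit sum was 288, 257 and 372 CPM in WT and 252, 261 and 278 CPM in 5xFAD. Both subunits were highest in WT 3, and the ranges of WT 1 and 2 and of 5xFAD overlapped for the small subunit and met at 410 CPM for the large one.

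**Figure D2:**
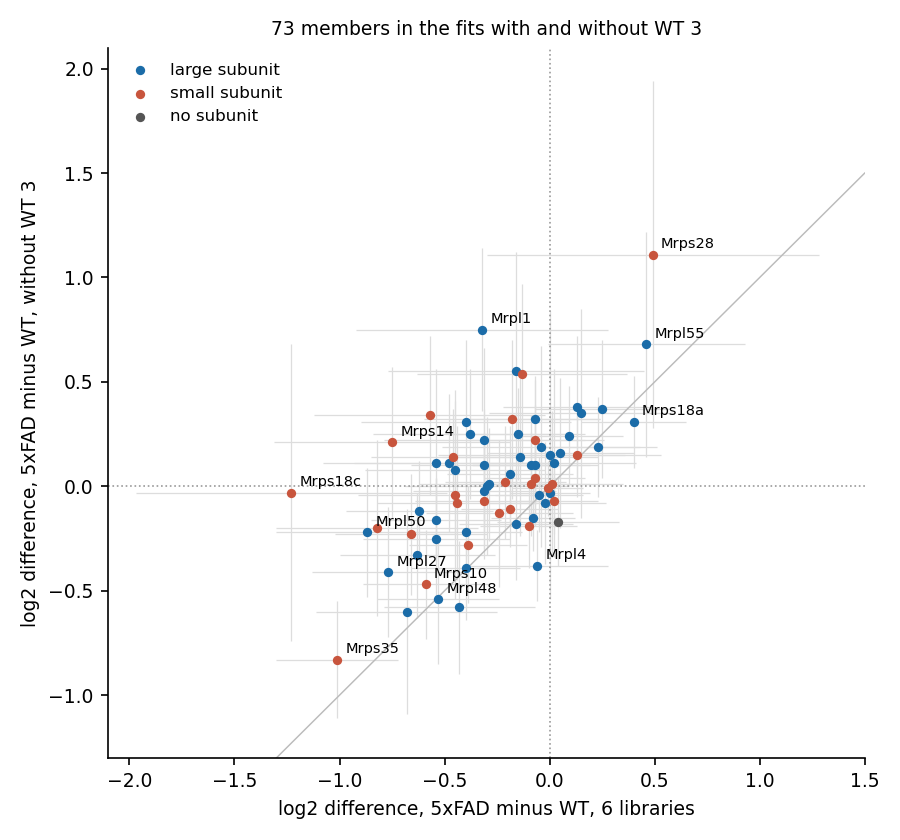
Fitted log2 difference (5xFAD minus WT) of the 73 members tested in both fits, with all 6 libraries on the x axis and without WT 3 on the y axis; bars are 1 SE and the diagonal marks equal values. Most points lie left of 0 on the x axis (57 of 73), while on the y axis they spread about 0, and Mrps35 is lowest without WT 3 and second lowest with 6 libraries.

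Across the 73 tested members WT 3 was the highest of the 6 libraries for 42 and the lowest for 5. Over all genes tested it was the highest for 37.9% and the lowest for 35.1%, so that it took both ends about equally often. Its median deviation from the mean of the other 5 libraries was 0.62 on the log2 scale for members, against 0.03 for all genes, and 61 of 73 members lay above that mean. No other library had a median deviation of the members beyond -0.05 to 0.03. Median variation of a member over the 6 libraries was 28.9% (coefficient of variation), and 21.6% without WT 3, against 26.1% and 15.6% for all genes.

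**Figure D3:**
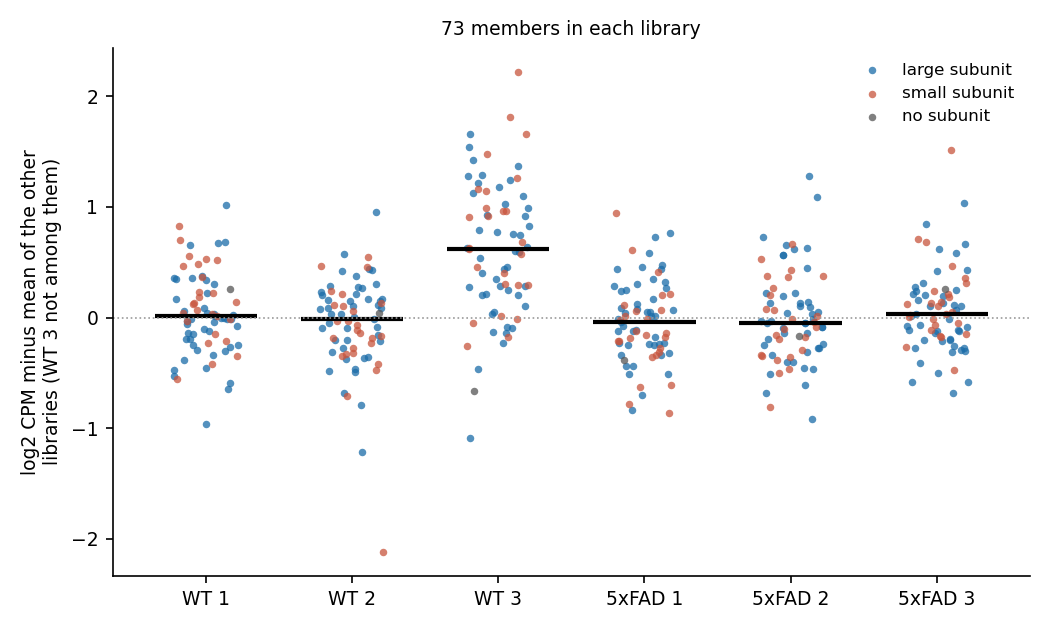
Deviation of each of the 73 tested members in each library, as log2 CPM minus the mean of the other libraries other than WT 3; points are members, colored by subunit, and bars are medians. The WT 3 median is 0.62 and those of the other 5 libraries lie between -0.05 and 0.03.

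Among members, too, the deviation of WT 3 went with GC content (Spearman correlation -0.48 over 72 genes, which share all libraries, a description). Transcript GC of the members ranged from 39.6% to 60.6%, with a median of 50% against 50.1% over the table, so that the set as a whole was not low in GC. Member transcripts were short, with a median of 1328 bases against 2902, and the deviation of WT 3 had a Spearman correlation with length of 0.27 over the members and of -0.04 over all genes. The part of length in the level of the members in WT 3 was not tested. In members with a GC content under 45%, the median deviation of WT 3 was 1.28 (n = 13), against 0.81 for all genes of that range. From 45 to 50% it was 0.91 (n = 23) against 0.34, from 50 to 55% 0.59 (n = 22) against -0.13, and from 55% on 0.21 (n = 14) against -0.69. In each range the members therefore lay higher in WT 3 than the median gene of similar GC content. After offsets for GC content and length, with all 6 libraries, 53 of 73 members (72.6%) had a lower estimate, against 54.6% of all genes. The median was -0.162 for members and -0.030 for all genes. With the same offsets and without WT 3, a setting chosen after seeing the data, 38 of 74 members were lower (51.4%), against 48.4% of all genes. The medians were then -0.026 and 0.010.

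**Figure D4:**
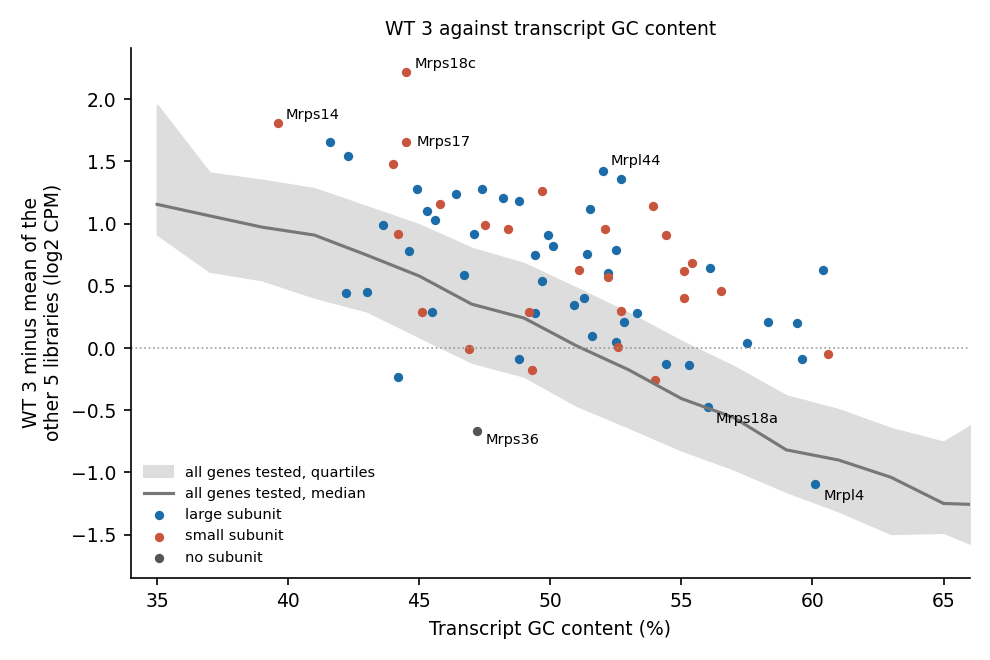
Deviation of WT 3 from the mean of the other 5 libraries (log2 CPM) against transcript GC content; points are 72 tested members, the line and band the median and quartiles of all genes tested in bins 2 percentage points wide. Members follow the downward trend of all genes but sit mostly above its median line, with Mrps18c highest at 2.22 and Mrpl4 lowest at -1.09.

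The members most displaced in WT 3 were Mrps18c, Mrps14 and Mrps17 upwards, and Mrpl4, Mrps36 and Mrps18a downwards. Mrps18c, the paralogue that takes the bacterial S18 position, had 1.21, 1.19 and 5.91 CPM in WT and 0.62, 1.06 and 1.75 CPM in 5xFAD, from 5 to 62 counts. Its log2 difference was -1.23 (SE 0.74) with 6 libraries and -0.03 (SE 0.71) without WT 3. WT 1 and 2 lay inside the 5xFAD range. Mrps14, the lowest in GC content of all members at 39.6%, had 4.67, 4.13 and 17.1 CPM in WT and 6.69, 3.52 and 5.09 CPM in 5xFAD. Mrps17, like Mrps14 a protein of bacterial type of the small subunit, had 3.12, 4.59 and 14 CPM in WT and 4.58, 3.52 and 6.37 CPM in 5xFAD. Their estimates had opposite signs with and without WT 3, from -0.75 (SE 0.56) to 0.21 (SE 0.36) for Mrps14 and from -0.57 (SE 0.55) to 0.34 (SE 0.38) for Mrps17.

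Mrpl4, whose protein reaches into the wall of the exit tunnel of the large subunit, was displaced the other way. Its CPM were 21.9, 21.5 and 8.57 in WT and 16.7, 17.6 and 15.5 in 5xFAD. WT 3 lay under all other libraries and WT 1 and 2 above all 5xFAD libraries. The log2 difference was -0.06 (SE 0.34, edgeR adjusted p = 0.966) with 6 libraries and -0.38 (SE 0.17, unadjusted p = 0.0418, edgeR adjusted p = 0.325) without WT 3. It was 1 of the 2 members with an unadjusted p under 0.05 in the smaller fit, and did not pass the test. Mrps36 measured 17.4, 15.4 and 9.43 CPM in WT and 12.1, 13.7 and 17.4 CPM in 5xFAD, with a log2 difference of 0.04 (SE 0.29) and, without WT 3, of -0.17 (SE 0.21).

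Of single members, Mrps35 came closest to the threshold. It encodes a mitochondria-specific protein of the small subunit, measured at 10.1, 9.28 and 13.4 CPM in WT (117, 101 and 141 counts) and at 4.34, 5.74 and 6.13 CPM in 5xFAD (35, 49 and 77 counts). All 5xFAD libraries lay below all WT libraries, with means of 5.4 ± 0.943 and 10.9 ± 2.2 CPM (SD, n = 3). The log2 difference was -1.01 (SE 0.29, unadjusted p = 0.00716, edgeR adjusted p = 0.355), and -0.83 (SE 0.28, unadjusted p = 0.0085, edgeR adjusted p = 0.153) without WT 3. Its estimate stayed below 0 in every fit run, between -1.12 and -0.83 when single libraries were left out, and it was not called in any of them.

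Groups did not overlap for 6 members with 6 libraries. The 5 lower in 5xFAD were Mrps35, Mrpl48, Mrpl50, Mrpl21 and Mrpl39 (6.35% of all genes were so), and the 1 higher was Mrps18a (8.42% of all genes). Mrpl21 and Mrpl39 are named here after their values were seen. Without WT 3 the groups did not overlap for 5 members higher in 5xFAD, against 15.5% of all genes, and for 7 lower, against 14.5%. The members were thus at or below the share of all genes in each direction, apart from the lower direction with 6 libraries, where 5 of 73 is 6.85%.

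Large subunit members of bacterial type numbered 28 among those tested, of which 6 had a higher and 22 a lower estimate with 6 libraries (median -0.162). Without WT 3, 19 were higher and 9 lower (median 0.104). Mrpl27, whose bacterial counterpart lies next to the peptidyl transferase center, had 9.26, 5.97 and 13.9 CPM in WT and 5.45, 4.81 and 6.77 CPM in 5xFAD. Its log2 difference was -0.77 (SE 0.36, edgeR adjusted p = 0.807), and -0.41 (SE 0.31) without WT 3. WT 2 lay within the 5xFAD range. Mrpl12, the stalk protein that is also reported to bind mitochondrial RNA polymerase, had 13.8, 15.6 and 23.2 CPM in WT and 20.6, 13 and 12.6 CPM in 5xFAD. The log2 difference was -0.19 (SE 0.3), and 0.06 (SE 0.23) without WT 3. For Mrpl23, a protein at the exit of the tunnel, values were 5.19, 4.5 and 6 CPM in WT and 5.33, 8.09 and 5.33 CPM in 5xFAD. All 5xFAD libraries exceeded WT 1 and 2, while WT 3 lay above 5xFAD 1 and 3 and below 5xFAD 2, and the log2 difference was 0.25 (SE 0.32), or 0.37 (SE 0.33) without WT 3.

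Large subunit members that occur only in mitochondria numbered 17 among those tested, of which 4 were higher and 13 lower with 6 libraries (median -0.378), and 8 higher and 9 lower without WT 3 (median -0.033). Mrpl48 was at 6.75, 7.07 and 6.76 CPM in WT and at 5.45, 4.1 and 4.7 CPM in 5xFAD. Its WT libraries were close to each other, WT 3 among them, and all lay above the 5xFAD libraries. The log2 difference was -0.53 (SE 0.29, edgeR adjusted p = 0.81) and -0.54 (SE 0.31, edgeR adjusted p = 0.476) without WT 3, so that it hardly moved with that library. Its exons overlap those of Rab6a on the opposite strand. Mrpl50 had 5.97, 6.8 and 17.1 CPM in WT and 5.95, 4.57 and 5.81 CPM in 5xFAD. Its log2 difference was -0.87 (SE 0.43) with 6 libraries and -0.22 (SE 0.31) without WT 3. Groups did not overlap, but WT 1 and 5xFAD 1 were nearly equal.

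Mrpl44, which has a fold like that of ribonuclease III, had 3.29, 4.32 and 10.2 CPM in WT and 2.85, 2.46 and 6.69 CPM in 5xFAD. WT 3 and 5xFAD 3 were the high library of each group, and the log2 difference was -0.54 (SE 0.54), or 0.11 (SE 0.45) without WT 3. Mrps30, a large subunit protein in spite of its name, measured 14.8, 13.2 and 12.6 CPM in WT and 12.3, 22.3 and 13.3 CPM in 5xFAD. 5xFAD 2 was its highest library, and the log2 difference was 0.23 (SE 0.28), or 0.19 (SE 0.24) without WT 3. Mrpl55, the large subunit member put in neither class, was at 1.73, 1.84 and 2.67 CPM in WT and at 1.86, 4.34 and 2.39 CPM in 5xFAD, from 15 to 37 counts, with a log2 difference of 0.46 (SE 0.47), or 0.68 (SE 0.54) without WT 3. Here too 5xFAD 2 was the highest library.

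The Mrps18 paralogues share an ancestor with bacterial S18 and sit at different places of the ribosome. Mrps18a, at the large subunit, was the only member with all 5xFAD libraries above all WT libraries: 12, 9.09 and 8.57 CPM in WT and 12.5, 12.9 and 13.8 CPM in 5xFAD (means 9.9 ± 1.86 and 13.1 ± 0.644, SD, n = 3). The log2 difference was 0.4 (SE 0.25, edgeR adjusted p = 0.811), and 0.31 (SE 0.22, edgeR adjusted p = 0.587) without WT 3. WT 1 lay close to 5xFAD 1. Mrps18b, at the small subunit, had 5.71, 4.5 and 5.05 CPM in WT and 3.47, 6.21 and 5.65 CPM in 5xFAD, with a log2 difference of 0.01 (SE 0.34) and 0.01 (SE 0.35) without WT 3. Per kilobase of exon the 3 paralogues stood at 3.11 for Mrps18a, 2.44 for Mrps18b and 1.82 for Mrps18c, the last with a WT 3 value far above the others.

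**Figure D5:**
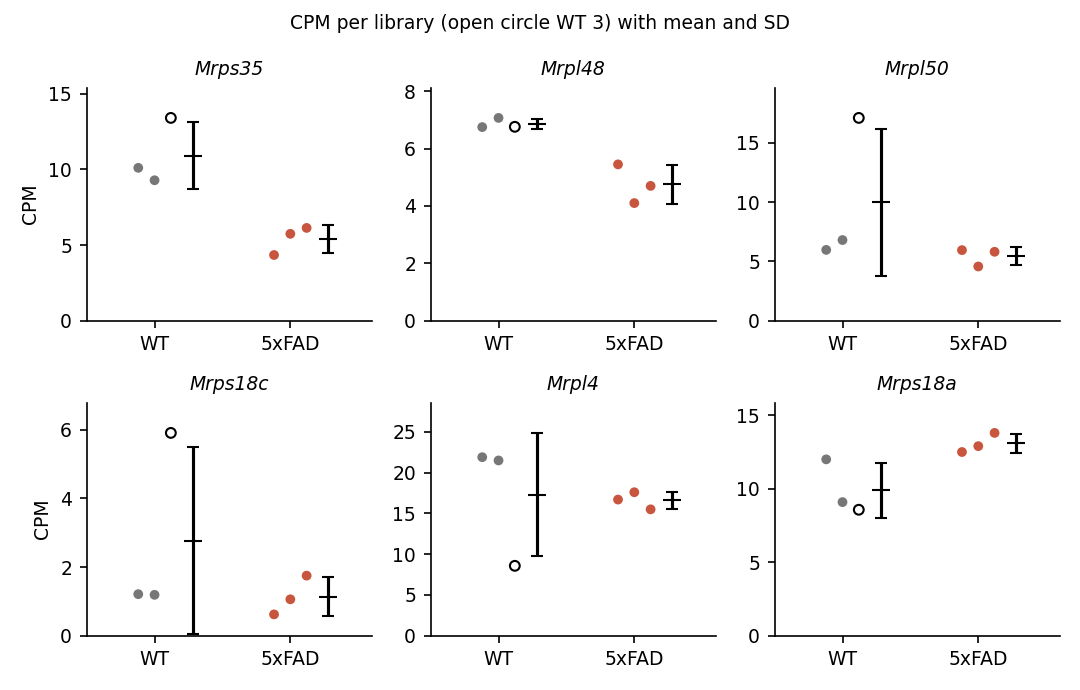
CPM in each library for 6 members, with the mean and SD of each group (n = 3) beside the points; the open circle is WT 3 and each axis starts at 0. Mrps35 and Mrpl48 are lower in all 5xFAD libraries, WT 3 carries the WT mean of Mrpl50 and Mrps18c upwards and that of Mrpl4 downwards, and Mrps18a is higher in all 5xFAD libraries, none of them past the test.

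Small subunit members of bacterial type numbered 16 among those tested, with 2 higher and 14 lower at 6 libraries (median -0.274) and 7 higher and 9 lower without WT 3 (median -0.022). Mrps12, the decoding center protein whose bacterial counterpart binds streptomycin, had 10, 6.89 and 10.3 CPM in WT and 6.69, 6.68 and 7.4 CPM in 5xFAD. The log2 difference was -0.39 (SE 0.28), and -0.28 (SE 0.28) without WT 3, with WT 2 inside the 5xFAD range. Mrps10, the counterpart of bacterial S10, had 15.7, 8.91 and 15.4 CPM in WT and 8.8, 7.62 and 10.1 CPM in 5xFAD, with a log2 difference of -0.59 (SE 0.3, edgeR adjusted p = 0.81) and -0.47 (SE 0.26) without WT 3. Here again WT 2 overlapped the 5xFAD libraries while WT 1 and 3 exceeded them. Mrps28, the counterpart of bacterial S1, was measured from 2 to 33 counts: 1.38, 0.184 and 2.1 CPM in WT and 1.86, 0.586 and 2.63 CPM in 5xFAD. Its estimate was 0.49 (SE 0.79), and 1.11 (SE 0.83) without WT 3, the largest of any member there, with WT 2 at 2 counts.

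Among the 10 small subunit members that occur only in mitochondria, 2 were higher and 8 lower with 6 libraries (median -0.2), and 5 higher and 5 lower without WT 3 (median -0.033). Besides Mrps35, Mrps22, a gene mutated in human mitochondrial disease, had 8.65, 5.97 and 15 CPM in WT and 5.82, 6.21 and 6.61 CPM in 5xFAD. Its log2 difference was -0.66 (SE 0.36), and -0.23 (SE 0.29) without WT 3, and WT 2 lay within the 5xFAD range. Mrps27, a pentatricopeptide repeat protein, had 7.36, 7.16 and 11 CPM in WT and 7.56, 7.62 and 6.85 CPM in 5xFAD, with a log2 difference of -0.21 (SE 0.29) and of 0.02 (SE 0.27) without WT 3. Apart from WT 3, all its libraries lay between 6.85 and 7.62 CPM. Mrps34, needed for stability of the small subunit in mice, had 17.1, 12.2 and 15 CPM in WT and 15.6, 17.4 and 15.7 CPM in 5xFAD, with a log2 difference of 0.13 (SE 0.23), or 0.15 (SE 0.2) without WT 3. Its exons overlap Nme3 on the same strand and Mapk8ip3 on the other.

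Of the 26 partner genes that faced a member and had a row, 24 were tested and 0 were called, with or without WT 3. The 26 include 2 that are members themselves, Mrpl46 and Mrps11. With 6 libraries 13 of the 24 tested partners were higher and 11 lower, with a median log2 difference of 0.01. Without WT 3 the counts were the same and the median was 0.05. In WT 3 some partners deviated unlike their member: Sars2 by -0.91 on the log2 scale beside 0.46 for Mrps12, and Gga3 by -0.92 beside 0.68 for Mrps7. Others deviated alike, such as Ptcd2 by 1.33 beside 0.57 for Mrps27, and Mitd1 by 1.13 beside 0.78 for Mrpl30. These partners were picked after their values were seen.

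Ribosomal proteins under other names were measured in the same range. All 5 with a row were tested and 0 were called (1 higher, 4 lower, median log2 difference -0.1, and -0.03 without WT 3). Ict1, the release factor that frees stalled mitochondrial ribosomes and is also called Mrpl58, had 19, 19.8 and 21 CPM in WT and 10.8, 21.1 and 19.2 CPM in 5xFAD, with a log2 difference of -0.22 (SE 0.28), or -0.18 (SE 0.23) without WT 3. Only 5xFAD 1 was low. Aurkaip1, a small subunit protein, had 19.6, 22 and 33.7 CPM in WT and 20.7, 26.3 and 18.5 CPM in 5xFAD, with a log2 difference of -0.2 (SE 0.27) and of 0.07 (SE 0.19) without WT 3.

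Genes listed for the assembly of the mitochondrial ribosome or the modification of its RNA were next compared, with Yrdc, which acts on tRNA, among them. None of 25 rows tested, with separate rows for Nsun4, was called (8 higher, 17 lower, median -0.07). Without WT 3, 0 of 26 were (16 higher, 10 lower, median 0.14). Rpusd4, a pseudouridine synthase of mitochondrial RNA, had the smallest p of the list, with 2.34, 1.65 and 4.1 CPM in WT, against 0.743, 1.52 and 1.43 CPM in 5xFAD, giving a log2 difference of -1.11 (SE 0.53, edgeR adjusted p = 0.81). Without WT 3, its highest library, it was -0.67 (SE 0.62, edgeR adjusted p = 0.71). Its groups did not overlap, from 6 to 43 counts. Yrdc, which acts in threonylcarbamoylation of tRNA, followed with -0.84 (SE 0.41), or -0.54 (SE 0.44) without WT 3. Of 17 genes listed for mitochondrial translation, not all of them translation factors (Letm1 and Oxa1l are among them), 0 were called. With 6 libraries 4 were higher and 13 lower (median -0.26). Without WT 3 the counts were 9 and 8 (median 0.07). Tufm, the elongation factor that brings tRNA to the ribosome, had 29.3, 23.9 and 32.5 CPM in WT and 24.9, 16.5 and 20.9 CPM in 5xFAD, with a log2 difference of -0.46 (SE 0.24, edgeR adjusted p = 0.81) and of -0.36 (SE 0.19, edgeR adjusted p = 0.412) without WT 3. Mtif2, an initiation factor, was at 9.17, 8.36 and 30.9 CPM in WT and at 8.67, 7.74 and 11 CPM in 5xFAD, so that its -0.81 (SE 0.49) became 0.07 (SE 0.25) without WT 3.

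For the mitochondrial aminoacyl-tRNA synthetases and their partners, 0 of 17 were called (8 higher, 9 lower, median -0.03, and 13 higher, 4 lower, median 0.14 without WT 3). Nars2, which charges asparagine tRNA, had the smallest p of them, with 4.85, 3.49 and 10.6 CPM in WT, against 2.73, 2.81 and 4.06 CPM in 5xFAD, giving a log2 difference of -0.96 (SE 0.47), or -0.36 (SE 0.4) without WT 3. Its WT and 5xFAD ranges overlapped. Aars2, the alanine enzyme, followed with -0.69 (SE 0.51), or -0.72 (SE 0.56) without WT 3. Of 9 genes that transcribe or replicate the mitochondrial genome, 0 were called (3 higher, 6 lower, median -0.16, and 8 higher, 1 lower, median 0.16 without WT 3). Ssbp1, which coats single-stranded mitochondrial DNA, differed by -0.8 (SE 0.43), and by -0.25 (SE 0.37) without WT 3. Tfam, which packages that DNA, had 10, 8.91 and 20.3 CPM in WT and 8.8, 9.26 and 10.9 CPM in 5xFAD, with -0.43 (SE 0.35) and 0.04 (SE 0.24). In all these lists leaving out WT 3 raised the median, as it did for the members.

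Of the 13 listed genes of the mitochondrial genome, whose messages the mitochondrial ribosome translates, only 5 had a row. Of these, mt-Co3, which encodes a core subunit of cytochrome c oxidase, was called higher in 5xFAD. It had 21, 19.7 and 16.3 CPM in WT and 52.4, 65.9 and 52.7 CPM in 5xFAD. The log2 difference was 1.58 (SE 0.2, edgeR adjusted p = 0.0102), and 1.49 (SE 0.15, edgeR adjusted p = 9.30e-06) without WT 3. All 5xFAD libraries were above all WT libraries. mt-Nd3, a subunit of complex I, had 39.7, 54.7 and 37 CPM in WT and 24.9, 36 and 24.8 CPM in 5xFAD. It did not pass with 6 libraries (-0.62, SE 0.24, edgeR adjusted p = 0.692) and fell by 0.72 on the log2 scale without WT 3 (SE 0.18, edgeR adjusted p = 0.039). The list had 1 gene higher and 4 lower in both fits, with medians of -0.13 and -0.49. Levels within the list differed widely, with mt-Nd4 at 2853 to 10321 CPM and mt-Nd5 at 1322 to 2953 CPM. Whether the much lower counts of mt-Co3, mt-Nd3 and mt-Nd4l reflect the levels of their messages was not tested. Reads of mitochondrial genes can be shared with nuclear copies of them, and these values are uncertain to that extent.

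Markers of the cells of the hippocampus were measured beside the members, and every listed marker had counts. The 8 excitatory neuron markers summed to 17755 and 19932 CPM in WT 1 and 2 and to 7869 in WT 3. In 5xFAD their sum was 15966 to 17581 CPM. With 6 libraries 5 were higher and 3 lower in 5xFAD (median log2 difference 0.08), and 0 were called. Without WT 3, 0 were higher and 8 lower (median -0.23), and 1 was called lower. The 6 inhibitory neuron markers summed to 535 to 595 CPM in WT and 411 to 544 in 5xFAD, with 0 called. All 6 had a lower estimate in both fits, with medians of -0.45 with 6 libraries and -0.32 without WT 3. The 6 oligodendrocyte markers summed to 2008 to 3094 CPM in WT, lowest in WT 3, and 3047 to 3427 in 5xFAD, with 0 called. Astrocyte markers summed to 5236 to 5473 CPM in WT and 5976 to 6848 in 5xFAD. Gfap was called higher in both fits, and Aqp4 without WT 3. Mean Gfap was 312 CPM in WT and 1568 in 5xFAD, while Slc1a2, the largest part of the sum, was at 4343 and 4086. With 6 libraries 3 astrocyte markers were higher and 3 lower (median log2 difference 0.09). Without WT 3 the counts were 4 and 2 (median 0.34). Microglia markers summed to 160 to 251 CPM in WT, lowest in WT 3, and 669 to 731 in 5xFAD, with 4 of 9 tested called higher (Trem2, C1qa, C1qb and C1qc) and 7 without WT 3. Endothelial and mural markers (210 to 230 CPM in WT, 205 to 226 in 5xFAD) and choroid plexus markers (407 to 2315 CPM in WT, lowest in WT 3, 738 to 4365 in 5xFAD) had 0 called. WT 3 thus differed from WT 1 and 2 in excitatory neuron, oligodendrocyte, microglia and choroid plexus markers in the same library in which the members were high, and their part in the level of the members was not tested.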

How the data were processed

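The authors deposited raw counts per gene. According to the submitters' processing notes, reads were trimmed with cutadapt 1.9.3, aligned to mm10 with HISAT2 2.0.4, counted with HTSeq 0.9.1 and normalised with edgeR 3.16.5. The 6 columns of normalised log2 values were not used. The annotation release is not given in the sources used here.

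Counts were fitted for all genes in edgeR 4.0.16 (R 4.3.3) with filterByExpr (minimum count 10), TMM scaling and the quasi-likelihood test on genotype, without covariates, with Benjamini-Hochberg adjustment over all genes tested and a threshold of 0.05. SEs were taken from the log2 difference and its F statistic (size over the root of F). With 1 library per mouse, p-values rest on the spread of mice and of library preparation combined. Log2 CPM used a prior count of 2. Depth was 8.45 to 12.6 M counts per library, and counting floors cover counting error only. Replicates differed by a chi-square of 6.72 to 116 per degree of freedom, so no library was a copy. Alternatives were run with DESeq2 1.42.0 and limma 3.58.1 among others. The procedure was tested on simulated data.

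Named members were the 6 of smallest p in each direction, any called, the 3 most abundant per kilobase in each subunit, the 3 most raised and 3 most lowered in WT 3, those singled out by role (stalk, decoding, paralogues and proteins with other functions), and those not tested, and from each other list the called genes and the 2 of smallest p, given in part as counts for marker lists. Members and lists were chosen with earlier results of these data known. One marker gene's result and the name of one transgene are not reported here.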

Additional observations from a re-analysis of the deposited data

How the results depend on the processing

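No member was called in either direction in any of the 18 alternatives, each of which changed 1 choice except where 2 are named. The number of members higher in 5xFAD was 16, and 37 with library weights in limma-voom, 40 without WT 3 and 36 without WT 3 after GC and length offsets, the last a setting chosen after seeing the data. It ranged from 13 to 40 when single libraries were left out. The median log2 difference was -0.192, 0.014 with library weights, and -0.339 to 0.014 when single libraries were left out, where only the fit without WT 3 was above 0. Over all genes, the number called higher in 5xFAD was 85, and between 15 (without 5xFAD 3) and 355 (library weights) under the alternatives, with 209 in DESeq2 and 120 with the block. The median level per kilobase was 3.11 by exons and 5.03 by the longest transcript.

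With the replicate number as a block, 0 members were called higher and 0 lower, 16 were higher and the median was -0.189. Same-numbered libraries of both genotypes correlated by 0.094, 0.069 and 0.18 over genes. Every library correlated best with its own number, a hint from the data, and the numbers were not taken as pairs. With GC and length offsets added to the block the median was -0.131 with 21 higher.

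Of 483 values of named members, 430 kept their direction and 53 did not, all of them uncalled. Mrpl38, at 0 in the reported fit, was -0.0039 with RLE, -0.0078 with upper-quartile scaling, -0.0053 with no filter, -0.0011 with a minimum count of 30, -0.0045 in DESeq2 and -0.0019 in limma-voom. With library weights Mrpl38 was -0.03, Mrpl44 0.11, Mrps14 0.07, Mrps15 -0.04, Mrps17 0.38 and Mrps36 -0.13. In limma-voom without weights Mrpl4 was 0.04 and Mrps18b -0.0078, and with the block 0.05 and -0.02. With GC and length offsets Mrpl38 was -0.19, Mrps21 0.02 and Mrps34 -0.02, and with the block added -0.18, 0.01 and -0.0012. With these offsets and without WT 3, values were 0.02 for Mrpl12, -0.04 for Mrpl38, 0.06 for Mrpl44, 0.23 for Mrps14, -0.14 for Mrps15, 0.38 for Mrps17, -0.05 for Mrps18b and -0.22 for Mrps36. When single libraries were left out, the ranges were -0.11 to 0.06 for Mrpl10, -0.46 to 0.06 for Mrpl12, -0.06 to 0.07 for Mrpl38, -0.38 to 0.14 for Mrpl4, -1.16 to 0.11 for Mrpl44, -1.09 to 0.21 for Mrps14, -0.08 to 0.07 for Mrps15, -0.94 to 0.34 for Mrps17, -0.15 to 0.22 for Mrps18b, -0.27 to 0.08 for Mrps21, -0.32 to 0.02 for Mrps27, -0.02 to 1.11 for Mrps28, -0.08 to 0.39 for Mrps30 and -0.17 to 0.22 for Mrps36. Causes were not tested.

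The direction of the members depends on WT 3, and without it the WT group holds 2 libraries. Members with few counts have large SEs, and small differences were not detectable with these libraries.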
